A study of Homo sapiens with 9 samples.

Results

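Complement is a set of secreted proteases, their substrates and their inhibitors, made mostly in the liver but also locally in many tissues, the retinal pigment epithelium among them. The 9 genes described here are complement components and regulators (C1R, C1S, C4A, C4B, C3, CFB, CFI, SERPING1 and CD55) out of 26475 genes in the deposited table. They were selected on measured values: the C4B row held no counts in Control and had counts in both other conditions, and C4A shares its reads. The levels of C4A and C4B against Control are therefore given as a description with no test. The others were picked by name with results of these data known.

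hTERT_RPE1 is an established line of human retinal pigment epithelial cells immortalised with telomerase. RNA was measured in 9 libraries, 3 for each condition, all from cells seeded for 24 h on surfaces coated with fibronectin. Control cells grew on glass and carried the empty pLKO_1 vector according to their titles, although their treatment label reads Ctrl shRNA. Soft cells carried the same control construct and grew on gels of 2.3 kPa. In sh_PIP4K2B the cells grew on glass and each library came from a different hairpin against the lipid kinase gene PIP4K2B (#1, #2 and #3), so the spread in this condition includes the differences between hairpins. The labels do not say whether the 3 libraries of a condition came from separate cultures, and p-values then measure only the spread between these libraries. PIP4K2B itself was at 39.6%, 33.5% and 30.0% of its Control mean with the 3 hairpins and at 97.5% to 104% in Soft.

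Library totals ran from 19217346 to 24020799 estimated counts. Levels are given as CPM (estimated counts scaled to a common library size by TMM normalisation, which corrects for composition), and 3 counts in 1 library, taken as the floor, were between 0.131 and 0.148 CPM. Such floors cover counting error only. Libraries of a condition differed by a median SD of 0.36 in log2 CPM for sh_PIP4K2B, against 0.08 for Control and 0.07 for Soft. A gene was called where edgeR's quasi-likelihood test gave an adjusted p (Benjamini-Hochberg over 13784 genes) under 0.01. RNA came from whole cultures, in which fewer cells of a type and less RNA per cell cannot be told apart.

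Several routes start the cascade. In the classical route the proteases C1r and C1s, bound to C1q, cut C4 and then C2. In the alternative route factor B joins C3b. Both lead to enzymes that cut C3, the component on which all routes meet. The C1 inhibitor (SERPING1) blocks C1r and C1s, factor I (CFI) cuts C3b and C4b, and CD55, also called decay-accelerating factor, takes the C3-cutting enzymes apart on the cell surface.

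C4A and C4B are neighbouring copies of the C4 gene in the class III region of the major histocompatibility complex. On GRCh38 (GENCODE 44) C4A lies at chr6:31982057-32002681 and C4B at chr6:32014795-32035418, both on the plus strand with 41 exons, and 12113 bases separate them. Their canonical transcripts of 5427 nt differed at 13 positions (99.76% identity), and of 5353 stretches of 75 nt, the read length, only 481 (8.99%) in C4A did not occur in C4B. Of those differences, 5 fell in a coding window of 60 nt across exons 26 and 27, the stretch that sets the C4A and C4B isotypes. The window is shown because it holds 5 of the 13 positions by which a read can be given to one gene or the other. Differing bases are in capitals (C4A from chr6:31996062-31996216 and C4B from chr6:32028800-32028954, spliced, plus strand).
C4A: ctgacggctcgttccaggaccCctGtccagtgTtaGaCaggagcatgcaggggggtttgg
C4B: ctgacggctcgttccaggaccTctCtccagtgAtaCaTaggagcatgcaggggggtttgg

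C4A counts were low but present in Control, at 2.06, 0.762 and 1.65 CPM. With hairpins #1, #2 and #3 they were 11.6, 6.45 and 13.3 CPM, and in Soft 14.7, 26.4 and 21.5 CPM. C4B was listed at 0 in each Control library, at 10.4, 3.71 and 2.44 CPM with the hairpins and at 23.1, 13.5 and 17.6 CPM in Soft. Both genes were thus higher in every sh_PIP4K2B and every Soft library than in any Control library.

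The table held another C4 row, C4B_2, a further copy that RefSeq places on the alternate sequence chr6_GL000256v2_alt. Its spliced sequence differed from C4B at 4 positions and from C4A at 15, and 95.8% of its 75-nt stretches occur in one or the other. Among the 3 sequences, 406 such stretches occurred only in C4A, 75 only in C4B and 225 only in C4B_2. C4B_2 had estimated counts of 31.645, 47.628 and 21.294 in the Control libraries, in which C4B had 0. With hairpin #2 the reverse was seen, since C4B_2 was at 0 and C4B at 77.086. In each library the 3 rows were fractions, with C4B or C4B_2 at 0 where just stated, that added to a whole number within 0.001. These sums were 76, 65 and 59 for Control, 686, 211 and 392 with the hairpins, and 1335, 1037 and 1266 for Soft.

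The split between the rows varied within a condition. C4A took 58.4%, 26.7% and 63.9% of the sum in Control, with the hairpins 36.9%, 63.5% and 68.8%, and on the gel 24.1%, 53.5% and 38.0%. C4B took 12.6% to 36.5% in sh_PIP4K2B and 27.4% to 38.0% in Soft. The share of C4A therefore overlapped between all 3 conditions, and the absence of C4B in Control was a property of its own row, on a total of 59 to 76 reads. Whether the C4B row at 0 came from how shared reads were assigned was not tested.

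**Figure D1:**
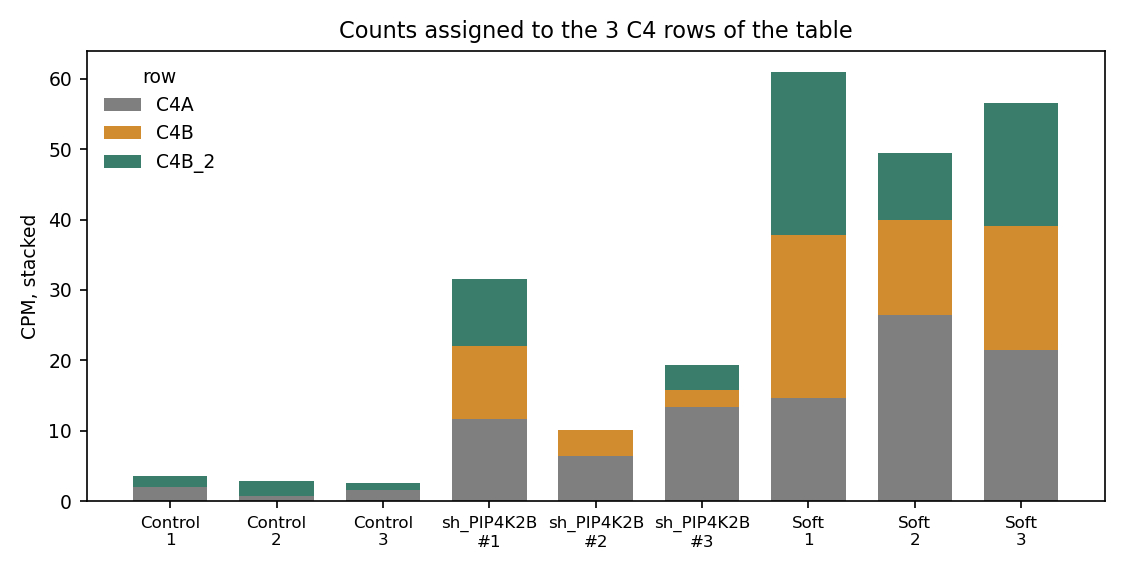
Estimated counts of the 3 C4 rows in each library, scaled to CPM (vertical axis) and stacked, with 1 bar per library. Control bars hold no C4B segment but do hold C4A and C4B_2, their sums lie between 2.58 and 3.54 CPM, and the Soft sums lie between 49.4 and 60.9 CPM.

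The sum does not depend on the split. Over the 3 rows Control had 2.99 ± 0.495 CPM, sh_PIP4K2B 20.4 ± 10.7 CPM and Soft 55.6 ± 5.81 CPM (mean ± SD, n = 3), which is 6.81-fold and 18.6-fold the Control mean. With hairpins #1, #2 and #3 it was 31.6, 10.2 and 19.4 CPM, so that the lowest hairpin library was still above the highest Control library, at 3.54 CPM. For C4A plus C4B alone the ratios to Control were larger, 10.7-fold and 26.1-fold, since C4B_2 held part of the Control counts.

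Soft against sh_PIP4K2B is not the contrast on which C4B was chosen and was tested. Control libraries enter the edgeR fit only through the filter and the shared estimate of spread. All Soft libraries lay above all sh_PIP4K2B libraries for C4A plus C4B, with 38.9 ± 1.07 against 16 ± 5.95 CPM (SD, n = 3), a mean difference of 1.35 in log2 CPM. The exact two-sided permutation test gave p = 0.1, the smallest that 3 against 3 libraries allow. In the edgeR fit the sum had a log2 fold change of 1.28 (SE 0.30, adjusted p = 0.0074), and with C4B_2 added, a sum chosen after seeing the data, 1.45 (SE 0.33, adjusted p = 0.006). Neither single row was called (C4A 0.99, adjusted p = 0.041; C4B 1.71, adjusted p = 0.027, both edgeR). Without hairpin #1, C4B passed the threshold (2.55, adjusted p = 7.7e-04, edgeR), as it did with DESeq2 (adjusted p = 0.0029), and over the alternatives its adjusted p ran from 7.7e-04 to 0.089.

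Of the 7 genes tested against Control, C1R, C1S and C3 were higher in sh_PIP4K2B, none was lower, and 4 were not called. Among all genes 2.76% were called higher and 2.77% lower in that comparison. In Soft all 7 were higher, against 15.8% of all genes called higher and 14.8% called lower. Both comparisons share the Control libraries. Scaling by library size only moved the median of all genes in Soft by 0.107 on the log2 scale and the share of higher genes among all calls from 51.7% to 62.9%, and each of the 7 kept its direction and call there. Soft against sh_PIP4K2B tests the difference between the conditions directly, and 5 of 9 genes were higher in Soft (C1R, C1S, CFB, SERPING1 and CD55) with none lower, against 14.5% of all genes higher and 15.5% lower. All 9 genes passed the filter on low counts, but C4B and CFI passed only through sh_PIP4K2B and Soft and SERPING1 only through Soft, where they were high, so that the counts above are no support in themselves.

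**Figure D2:**
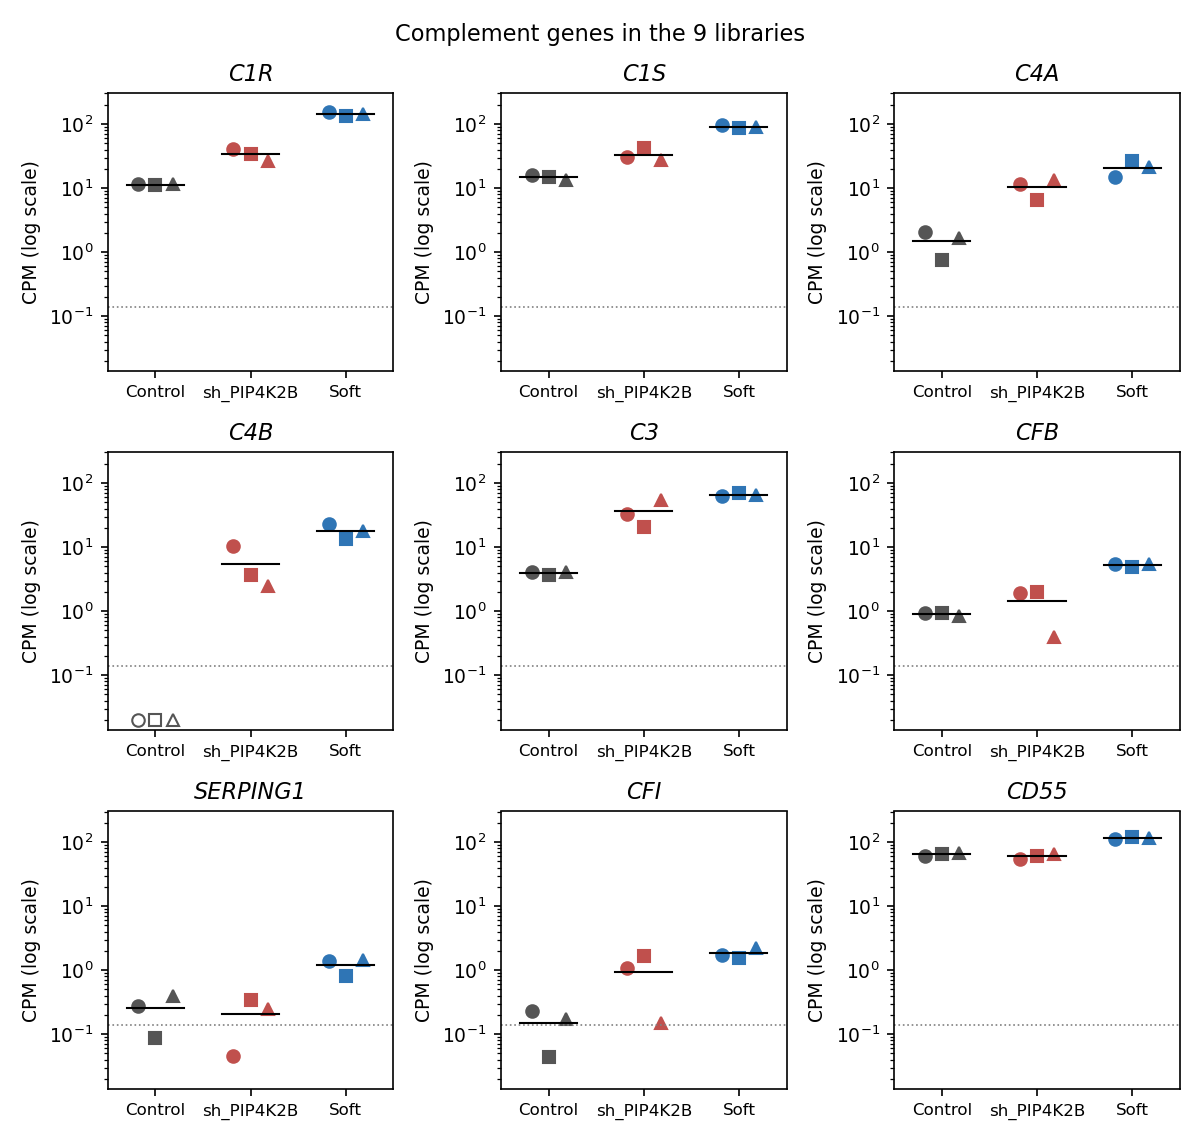
Level of each of the 9 genes in CPM (log scale) in the 3 conditions, with 1 point per library (circle, square and triangle for 1, 2 and 3), the mean as a bar, and the mean floor of 3 counts as a dotted line. Open symbols at the bottom stand for 0. Soft points lie above all Control points for each gene, whereas sh_PIP4K2B points overlap Control for CFB, SERPING1, CFI and CD55.

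C1R and C1S encode the pair of serine proteases of the C1 complex and lie tail to tail on chromosome 12, with 9181 bases between their ends (C1S at chr12:6988259-7071032 on the plus strand, C1R at chr12:7080214-7092540 on the minus strand). C1R was at 11.5, 11.0 and 11.4 CPM in Control, at 41.5, 34.4 and 26.5 CPM with hairpins #1 to #3, and at 155, 135 and 144 CPM in Soft. The 3 conditions did not overlap. Silencing gave a log2 fold change of 1.59 (edgeR, SE 0.16, adjusted p = 6.9e-04) and the gel one of 3.68 (edgeR, SE 0.17, adjusted p = 2e-06). Part of its transcript, 22.9% of the 75-nt stretches, also occurs in models of the neighbouring C1RL.

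C1S shares no 75-nt stretch with another gene. It was at 16.2, 14.7 and 13.6 CPM in Control, at 30.2, 42.6 and 27.4 CPM with the hairpins and at 95.9, 86.8 and 89.8 CPM in Soft, again with no overlap. For C1S the log2 fold change against Control was 1.17 with the hairpins (edgeR, SE 0.17, adjusted p = 0.0025) and 2.61 on the gel (edgeR, SE 0.17, adjusted p = 1.1e-05). Without Control replicate 1, 2 or 3 the sh_PIP4K2B call of C1S was lost (edgeR, adjusted p from 0.014 to 0.02, and 2.8e-08 to 0.025 over all alternatives).

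Soft exceeded sh_PIP4K2B by 2.08 for C1R (SE 0.16, adjusted p = 2.6e-05, edgeR) and by 1.44 for C1S (SE 0.16, adjusted p = 1.7e-04, edgeR), both as log2 fold changes. The ratio of their CPM values, not corrected for length, was 0.711, 0.749 and 0.837 in Control, 1.38, 0.807 and 0.966 with the hairpins, and 1.62, 1.55 and 1.61 in Soft. The ratio was 1.59 ± 0.0334 in Soft against 0.765 ± 0.0646 in Control (SD, n = 3), with no overlap. Counts of the 2 genes thus did not change by the same factor in these libraries. The exact two-sided permutation p was 0.1, the smallest possible. In sh_PIP4K2B the ratio with hairpin #2 lay within the Control range. Whether reads that C1R shares with C1RL bear on the ratio was not tested.

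C3, the substrate shared by all routes (chr19:6677704-6730562, minus strand), was at 4.14, 3.60 and 4.15 CPM in Control. With hairpins #1, #2 and #3 it was at 33.3, 20.3 and 54.4 CPM, or 841%, 513% and 1370% of the Control mean. In Soft it was at 62.6, 69.1 and 65.6 CPM. The hairpin libraries lay between Control and Soft and overlapped neither. Against Control the log2 fold changes were 3.18 with the hairpins (edgeR, SE 0.32, adjusted p = 6.9e-04) and 4.05 on the gel (edgeR, adjusted p = 2.6e-05), the highest of the 7 genes tested in both comparisons. Soft against sh_PIP4K2B gave 0.87 (adjusted p = 0.03, edgeR) and was called only without hairpin #3, the library with the most C3 of the 3 (1.28, adjusted p = 9e-04, edgeR), while over all alternatives its adjusted p ran from 9e-04 to 0.082.

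The calls of C1R, C1S and C3 in sh_PIP4K2B were lost when Soft was left out of the fit, and the cause was not tested. In a fit of only the 6 libraries of sh_PIP4K2B and Control, their adjusted p were 0.016, 0.025 and 0.016 (edgeR), and only 5 of 13331 genes were called in all. In Soft, C1R, C1S, C3 and CD55 kept their call in each of the 18 alternatives run.

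CFB encodes factor B, the protease subunit of the alternative route, and lies at chr6:31945650-31952086 on the plus strand, 29970 bases before C4A. It was at 0.931, 0.921 and 0.83 CPM in Control and at 5.42, 4.95 and 5.50 CPM in Soft (log2 fold change 2.56, adjusted p = 0.0015, edgeR). With hairpins #1 and #2 it was at 1.93 and 1.97 CPM, above Control, and with hairpin #3 at 0.395 CPM, below it. The hairpins thus went in opposite directions for CFB, and sh_PIP4K2B against Control gave 0.68 (adjusted p = 0.34, edgeR). Without hairpin #3 it was 1.12 and called (adjusted p = 0.0034, edgeR), and over all alternatives the adjusted p ran from 0.0034 to 0.6. Soft against sh_PIP4K2B gave 1.87 (adjusted p = 0.0063, edgeR), a call lost without any Control or Soft library (adjusted p from 0.013 to 0.024). Another gene model on the same strand covers 90.6% of the 75-nt stretches of CFB, so its counts may not be those of CFB alone.

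CFI encodes factor I, a protease that inactivates C3b and C4b (chr4:109731008-109802150, minus strand). It was near the floor in Control, at 0.233, 0.0439 and 0.175 CPM. CFI passed the filter on low counts with no Control library, so that its tests against Control are a description. With hairpins #1 and #2 it was at 1.06 and 1.64 CPM, and with hairpin #3 at 0.148 CPM, within the Control range. In Soft it was at 1.73, 1.52 and 2.23 CPM, above every Control library but overlapping sh_PIP4K2B. Hairpin #3 therefore had the highest C3 of the 3 hairpins and the lowest CFB and CFI. The fit gave 2.63 with the hairpins (edgeR, adjusted p = 0.048) and 3.57 on the gel (edgeR, adjusted p = 0.0039). Without hairpin #3 the former was 3.12 (adjusted p = 0.0031, edgeR; range over alternatives 0.0031 to 0.16), and the Soft call was lost without any single Control or Soft library (adjusted p from 0.011 to 0.02, edgeR). An overlapping model on the same strand shares 78.2% of the 75-nt stretches of CFI.

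SERPING1 (chr11:57597387-57619171, plus strand) was at or near the floor outside Soft. It passed the filter on low counts only through Soft, so that its tests are a description. It was at 0.279, 0.0877 and 0.393 CPM in Control and at 0.046, 0.337 and 0.247 CPM with the hairpins, which overlapped. In Soft it was at 1.37, 0.809 and 1.43 CPM, above all other libraries (against Control 2.22, adjusted p = 0.0095, edgeR; against sh_PIP4K2B 2.5, adjusted p = 0.0067, edgeR). The Soft call against Control sat close to the threshold and was lost without any single Control or Soft library (adjusted p from 0.016 to 0.04, edgeR). Its call against sh_PIP4K2B was lost without any single Soft library, Control replicate 1 or 3, or hairpin #1 or #3 (adjusted p from 0.011 to 0.029, edgeR).

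CD55 (chr1:207321519-207386804, plus strand) was the member with the highest counts per length in Control. It was at 60.5, 64.8 and 68.5 CPM there, at 54.5, 60.9 and 64.7 CPM with the hairpins and at 113, 120 and 115 CPM in Soft. sh_PIP4K2B and Control overlapped (log2 fold change -0.11, SE 0.10, adjusted p = 0.50, edgeR). Soft lay above both, with a log2 fold change of 0.84 against Control (SE 0.10, adjusted p = 2e-04, edgeR) and 0.95 against sh_PIP4K2B (adjusted p = 1.3e-04, edgeR).

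**Figure D3:**
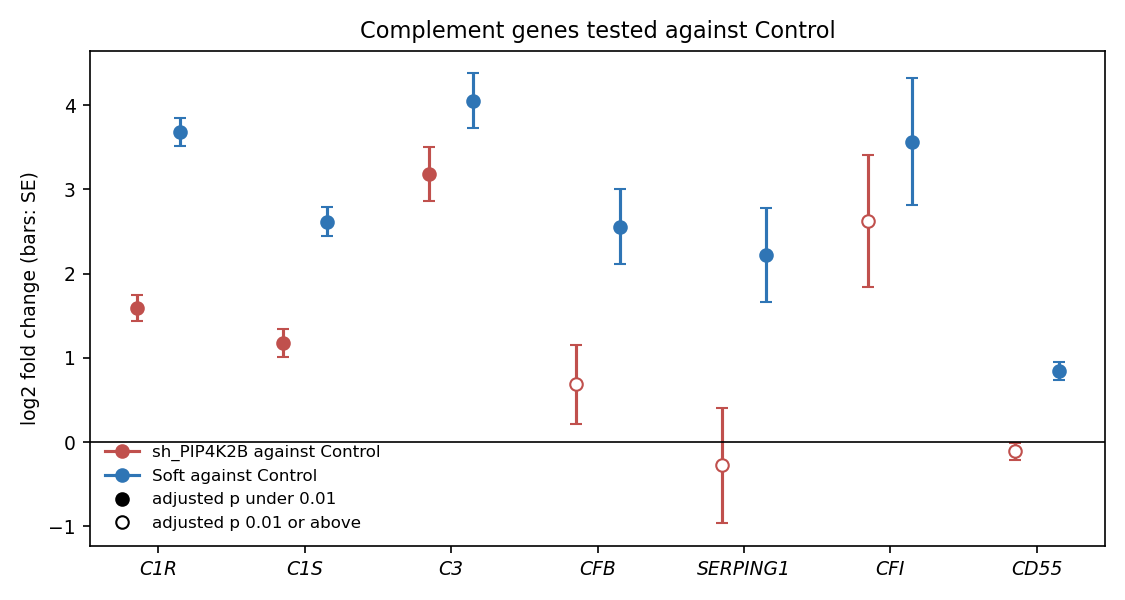
Log2 fold changes of the 7 genes tested against Control, in sh_PIP4K2B and in Soft, with bars for the SE. Filled points had an adjusted p under 0.01. C1R, C1S and C3 are filled in both conditions, and the other 4 genes are filled in Soft only. Both conditions are compared with the same Control libraries.

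Levels between genes were compared as CPM per kb of the canonical transcript. In Control CD55 was highest at 24.9 CPM per kb, followed by C1S at 5.52 and C1R at 4.54, while C3 was at 0.757 and the 3 C4 rows together at 0.551. In sh_PIP4K2B the order of the top 3 was CD55 at 23.2, C1R at 13.7 and C1S at 12.5, and the libraries of C1R and C1S overlapped per length. In Soft C1R was first at 58.3, followed by CD55 at 44.8, C1S at 33.9, C3 at 12.6 and C4 at 10.2 CPM per kb. CFB, SERPING1 and CFI stayed last in all conditions, at 2.14, 0.656 and 0.925 CPM per kb in Soft.

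Most other complement genes were silent or scarce in these cells. Of 51 listed, 17 had no count in any library and 16 had enough to be tested. The C1q subunit genes C1QA, C1QB and C1QC and the terminal components C6, C8A and C8B were among those listed at 0, and C2, the partner of C4 in the classical C3-cutting enzyme, had 1 to 9 counts. Of the classical route, RNA of both C1 proteases, C4 and C3 was thus measured, with little C2 and with C1q under the floor of 3 counts in each library.

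In sh_PIP4K2B none of the 16 was called by edgeR, 4 had an unadjusted p under 0.05, and DESeq2 called 1. Their median log2 fold change was -0.19 against 0.05 for all genes tested. CLU, encoding the chaperone clusterin, which inhibits the terminal complex, was closest, at 140, 43.9 and 53.9 CPM with the hairpins against 22.6 to 22.9 CPM in Control (1.80, SE 0.37, adjusted p = 0.012, edgeR). In Soft 3 were higher, 2 lower and 11 not called, with a median of 0.21 against 0.01 for all genes. These shares of 16 are near the 15.8% and 14.8% of all genes called higher and lower.

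The 3 higher in Soft were COLEC12, a scavenger receptor with a collectin domain (31.4 ± 1.35 against 0.851 ± 0.141 CPM, log2 fold change 5.20), C1RL, a protease related to C1r (99.1 ± 3.13 against 15 ± 0.468 CPM, 2.73), and CLU (123 ± 1.32 against 22.7 ± 0.12 CPM, 2.44). Their adjusted p were 5.3e-05, 3.1e-04 and 7.6e-04 (edgeR, n = 3). The 2 lower were C1QBP, a mostly mitochondrial protein that binds C1q (-0.83, adjusted p = 7.7e-04, edgeR), and the regulator SUSD4 (-1.65, adjusted p = 0.0012, edgeR). C1RL rose in Soft and was at 25.5, 15.2 and 7.10 CPM with the hairpins against 14.5 to 15.5 CPM in Control, where C1R was above Control with each.

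Among other regulators, the membrane inhibitors CD46 (-0.49, adjusted p = 0.031) and CD59 (-0.39, adjusted p = 0.12) were not called in Soft (edgeR), and their values had the opposite sign to that of CD55. Soft against sh_PIP4K2B gave 4 higher (COLEC12 4.53, C1RL 2.64, CALR 0.75 and C5 0.76) and 1 lower (CD46 -0.80, adjusted p = 0.0034, edgeR).

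In other cells complement genes are induced by interleukin-1, interleukin-6, tumour necrosis factor and the interferons, through NF-kB, C/EBP, STAT and IRF factors. Of 32 genes listed for these ligands, receptors, factors and feedback inhibitors, 28 were tested. In sh_PIP4K2B 5 were higher and none lower: SOCS3 (1.24), a feedback inhibitor of interleukin-6 signalling, the receptor gene IL6R (1.70), the factors CEBPD (2.53) and IRF1 (0.81) and the cytokine gene IL1A (2.57), with adjusted p from 9.7e-04 to 0.0054 (edgeR). Of all genes, 2.76% were called higher there. In Soft 13 were higher and none lower, where 15.8% of all genes were called higher. The 8 with the lowest adjusted p were SOCS1 (2.39), IRF1 (1.63), IL6R (2.34), SOCS3 (1.23), IL1B (1.92), IL6 (1.91), CEBPB (1.92) and NFKBIA (1.57). The list median was 0.60 with the hairpins and 0.81 on the gel, against 0.05 and 0.01 for all genes tested. Soft against sh_PIP4K2B gave 6 higher (SOCS1, LIF, IRF1, IFNGR2, NFKBIA and IL1B) and none lower, where 14.5% of all genes were called higher.

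IRF1, a factor induced by interferon, ordered the conditions as C1R did, at 16.5, 17.6 and 17.4 CPM in Control, 35.9, 24.7 and 29.9 CPM with the hairpins, and 53.2, 55.2 and 50.7 CPM in Soft. IL6 followed the same order, at 7.82 to 9.39 CPM in Control, 19.3, 10.9 and 21.4 CPM with the hairpins, and 26.4, 38.6 and 30.7 CPM in Soft. Against Control it was called in Soft but not in sh_PIP4K2B (1.01, adjusted p = 0.023, edgeR). Libraries of IL1B, IL6R, IRF9, CEBPB, SOCS1 and NFKBIA also lay in this order without overlap. Whether any of these factors bears on the complement genes was not tested.

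Liver acute-phase genes, which respond to the same cytokines, were mostly not measurable, with 4 of 18 tested. CP, encoding the copper oxidase ceruloplasmin, was higher in Soft (6.36, adjusted p = 2.2e-04, edgeR), and PTX3, a pentraxin that binds C1q, was lower (-1.44, adjusted p = 0.0048, edgeR). None was called in sh_PIP4K2B.

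The region around C4 was examined because CFB and the C4 genes lie together. Of 13 genes from the region in the table, 11 were tested, with C4A, C4B and CFB among them. Of the other genes, STK19, which has a model overlapping C4A on the same strand, was higher in sh_PIP4K2B (0.51, adjusted p = 0.0089, edgeR). In Soft TNXB (4.88), which encodes the matrix protein tenascin-X, EHMT2 (1.09), a histone methyltransferase gene, ATF6B (1.05), STK19 (0.68) and DXO (0.56) were higher (adjusted p from 5.8e-05 to 0.0063, edgeR). NELFE, SKIV2L and FKBPL were not called in Soft. Of all genes, 15.8% were called higher in Soft and 2.76% in sh_PIP4K2B. TNXB ranged from 0.132 to 0.233 CPM in Control, from 0.337 to 1.33 CPM with the hairpins and from 4.91 to 5.99 CPM in Soft. TNXB passed the filter on low counts with no Control library. For CD55, the tested neighbour in its cluster of regulators on chromosome 1 was CD46, whose values are given above.

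RefSeq promoters (GRCh38.p14, 250 bases before the start) were at hand for C1R, CFB, CFI and CD55 and were searched on both strands. The motifs were TTCNNNGAA (GAS-like, bound by STAT factors), GAAANNGAA (ISRE-like, bound by IRF factors), TTGCNNAA (C/EBP-like) and the NF-kB consensus. Of 35116 promoters of this length, 6.57%, 6.88%, 9.05% and 5.21% hold them. CFB and C1R are shown because they held matches, in capitals, while CFI and CD55 held none. In CFB (chr6:31945845-31946094, plus strand) an ISRE-like match began 139 and a GAS-like match 92 bases before the start, and in C1R (chr12:7092446-7092695, minus strand) a C/EBP-like match 106 bases before it. A second C1R start had a GAS-like match at 86 and a C/EBP-like match at 167 bases. A match is a description of the letters only.
CFB: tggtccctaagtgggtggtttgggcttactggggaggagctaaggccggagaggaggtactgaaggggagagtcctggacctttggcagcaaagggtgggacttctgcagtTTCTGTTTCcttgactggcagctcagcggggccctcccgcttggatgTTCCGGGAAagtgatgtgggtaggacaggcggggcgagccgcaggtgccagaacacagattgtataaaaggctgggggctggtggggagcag
C1R: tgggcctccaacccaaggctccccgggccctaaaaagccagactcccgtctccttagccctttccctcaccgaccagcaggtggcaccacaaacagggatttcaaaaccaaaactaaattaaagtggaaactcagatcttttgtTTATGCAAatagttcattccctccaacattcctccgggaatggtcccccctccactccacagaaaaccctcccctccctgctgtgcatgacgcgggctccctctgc

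The line was checked against markers of its tissue and of other cells that make complement. Of 12 pigment epithelium markers, 5 could be tested. OTX2 was higher in both conditions (0.65 with the hairpins and 1.77 in Soft), BEST1 was higher in Soft (2.23) and RDH5 lower with the hairpins (-2.26), with adjusted p from 1.4e-05 to 0.0091 (edgeR). In Soft RDH5 (-0.83, adjusted p = 0.023) and MITF (-0.49, adjusted p = 0.026) lay below every Control library and were not called (edgeR). RPE65 had at most 1 count in any library and TTR none. Summed over the list the markers gave 65.0 to 70.8 CPM for Control, 46.4 to 63.4 with the hairpins and 74.7 to 79.5 for Soft. Hepatocyte markers were at most 1.05 CPM in sum in any library, and the 1 that could be tested was not called.

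Of 7 macrophage markers, 3 were tested and all were higher in Soft, where 15.8% of all genes were called higher. The log2 fold changes were 2.77 for CD14, 2.29 for CSF1R and 1.13 for CD68 (adjusted p = 0.0029, 6.6e-05 and 0.0014, edgeR). The list sum was 156 to 159 CPM in Soft against 66.5 to 71.1 in Control and 44.1 to 83.1 in sh_PIP4K2B. CD68 alone made up most of this sum, with means of 66 CPM in Control, 63.7 CPM with the hairpins and 145 CPM in Soft. CD14, like the fibroblast marker LUM, passed the filter on low counts only through Soft, where it was high, and TNXB, CP and BEST1 did so with no Control library. AIF1 and TYROBP, which define these cells, were at 0 throughout, and the leukocyte gene PTPRC had 6 to 12 counts. Of 8 fibroblast markers, none was called in sh_PIP4K2B, where 2.76% of all genes were called higher and 2.77% lower. In Soft 6 were higher (COL3A1, DCN, PDGFRB, PDGFRA, LUM and COL1A1), against 15.8% of all genes. The other 2 lay below Control in every Soft library and were not called (edgeR, COL1A2 -2.16, adjusted p = 0.011, and THY1 -0.59, adjusted p = 0.053). The list sum in Soft was 865 to 896 CPM against 726 to 748 in Control and 386 to 705 in sh_PIP4K2B. The epithelial keratin gene KRT8 was lower in Soft (-0.98, adjusted p = 0.0033, edgeR), and KRT18 was lower with the hairpins (edgeR, -1.10, adjusted p = 0.0018) and on the gel (edgeR, -1.31, adjusted p = 1.4e-04). With each hairpin KRT8 also lay below every Control library but was not called (-0.95, adjusted p = 0.013, edgeR). The part of these shifts in the complement levels was not tested.

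Genes with the most similar profile were sought among 12111 genes as the smallest root mean square difference, over the 9 libraries, of log2 CPM relative to Control. For C1S they were PBXIP1, MST1 and HCP5, at 0.22, 0.22 and 0.25, with 1.78-fold to 2.10-fold the Control mean in sh_PIP4K2B and 5.39-fold to 6.17-fold in Soft. For C3 they were CYP1B1, PTGS2 and EFNA1, at 0.70, 0.76 and 0.78, and for C4A plus C4B they were BMF, PTGS2 and CYP1B1, at 0.76, 0.95 and 1.01. For CFB they were SLC27A3, ARSD and BTN3A1, at 0.34, 0.35 and 0.37. CYP1B1 and PTGS2 were among the nearest of both C3 and C4A plus C4B.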

How the data were processed

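The 9 libraries were made from RNA of hTERT_RPE1 cells, 3 per condition. The authors prepared stranded mRNA libraries, sequenced 75-nt read pairs, aligned them with STAR 2.6.1d and deposited a matrix of estimated counts that is not normalised or pooled. GRCh38 and hg38 are named in the submitters' processing notes, as is Salmon with no role or version, and the annotation is not given in the sources used here. Of the values 12.3% were not whole, and all were rounded for the tests. The quasi-likelihood F test of edgeR 4.0.16 (R 4.3.3, with TMM and filterByExpr) was run in 1 fit of the 9 libraries without covariates. P-values were adjusted by Benjamini-Hochberg over 13784 of 26475 genes with a threshold of 0.01. SE values are the absolute log2 fold change over the square root of F. CPM are estimated counts over TMM-scaled totals.

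Members and gene lists were chosen with earlier results of these data known. Lists were written by hand from general knowledge. Named genes are all members, up to 8 genes per list past the threshold in a comparison, and the 3 genes nearest in profile to C4A plus C4B, C3, C1S and CFB (genes whose mean reached 50 counts in some condition). CLU in sh_PIP4K2B, CD46, CD59, C2, IL6, C4B_2 and genes listed at or near 0 were named after their values were seen.

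Alternatives were no filter, a minimum of 10 counts per library, the upper quartile or the plain library size for scaling, DESeq2 1.42.0, a fit of 2 conditions at a time, the replicate number as block, each library left out in turn, thresholds of 0.05 and 0.001, and C4A and C4B summed. Adding C4B_2 to that sum was chosen after seeing the data. Positions and transcripts are from GENCODE 44, and C4 copies were placed with minimap2 2.31-r1302. Tests were checked on simulated data. Some listed genes are not reported here.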

Additional observations from a re-analysis of the deposited data

Results flagged for a closer look

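Soft and sh_PIP4K2B were set against the same Control libraries. The direct test of Soft against sh_PIP4K2B (edgeR, Benjamini-Hochberg) called 5 of the 9 genes described here, all higher in Soft. Of all genes, 14.5% were called higher and 15.5% lower there. The log2 fold changes were 2.08 for C1R (adjusted p = 2.6e-05), 1.44 for C1S (adjusted p = 1.7e-04), 1.87 for CFB (adjusted p = 0.0063), 2.5 for SERPING1 (adjusted p = 0.0067) and 0.95 for CD55 (adjusted p = 1.3e-04), each higher in every Soft library than in any hairpin library. SERPING1 rested on 17 to 32 counts per Soft library and passed the filter on low counts only through Soft, and its call was lost in 9 of 17 alternatives, so that its value is a description. The call of CFB was lost in 7 of 17 alternatives. Of 16 other complement genes tested, 4 were called higher in Soft than in sh_PIP4K2B and 1 lower.

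A further C4 row, C4B_2, lay outside the genes compared and had a mean of 16.6 CPM in Soft against 1.5 CPM in Control. It held 36.1% to 73.3% of the C4 counts in Control, where C4B was listed at 0.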

How the results depend on the processing

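In sh_PIP4K2B against Control, the 3 members called became 0 when only the 2 conditions were compared and 2 to 5 with 1 library left out, the 5 without hairpin #3. The 0 other complement genes called became 1 without a filter on low counts, 1 with DESeq2, 1 at an adjusted p of 0.05, and 0 to 3 with 1 library left out. SERPING1 ranged from -0.79 to 0.20 with 1 library left out and turned from -0.28 to 0.19 without Control replicate 3 and to 0.20 without hairpin #1 (edgeR, adjusted p = 0.91 and 0.84). In Soft against Control, 7 members became 4 with at least 10 counts in every library, where only 4 of them could be tested, 4 at 0.001 and 4 to 7 with 1 library left out, the 4 without Control replicate 3. The 5 other genes became 12 with only the 2 conditions, 8 at 0.05 and 5 to 8 with 1 library left out. In Soft against sh_PIP4K2B, 5 members became 3 with at least 10 counts in every library, 3 with only the 2 conditions, 8 at 0.05, 3 at 0.001 and 3 to 5 with 1 library left out. The 5 other genes became 2 with only the 2 conditions, 8 at 0.05, 2 at 0.001 and 2 to 7 with 1 library left out. Calls over all genes moved as well. With only the 2 conditions, 5 of 13331 genes were called in sh_PIP4K2B against Control and 9601 of 13578 in Soft against Control. In Soft against sh_PIP4K2B that fit called 2183 of 13550. At 0.05 the calls were 2375, 6498 and 6372 of 13784 genes in the same order of comparisons. Another threshold changes these counts by construction, and for the other alternatives the cause was not tested. The difference of 1.35 in log2 CPM of C4A plus C4B ran from 1.06 to 1.62 with 1 library left out.

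The replicate numbers did not pair the libraries, since correlations of same-numbered libraries ran from -0.115 to 0.039. With the number as a replicate block, 3, 6 and 5 members were called in the 3 comparisons against 3, 7 and 5 without it. SERPING1 lost its calls (2.26 in Soft against Control, adjusted p = 0.016, and 2.47 against sh_PIP4K2B, adjusted p = 0.014, edgeR), and C4B passed in Soft against sh_PIP4K2B (1.92, adjusted p = 0.0074, edgeR). At this depth SERPING1 rested on few counts outside Soft, and CFI on few counts in Control and with hairpin #3.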
